A study of Danio rerio with 2 samples.

Results

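The genes described here are the cytosolic ribosomal protein (RP) genes of the zebrafish, taken by symbol: all symbols that begin with *rpl*, *rplp* or *rps* and a digit, plus *rpsa*, with the *rps6k* kinase genes left out. This took 83 of the 25434 features counted in both libraries. They carry 82 different symbols, because *rpl37* stands at 2 Ensembl genes, of which one (ENSDARG00000034291) is among the most abundant members and the other (ENSDARG00000076360, called the second *rpl37* locus here) is nearly silent. Of the 83 members, 48 belong by name to the large subunit of the ribosome and 34 to the small subunit. The last, *rps19bp1*, encodes a binding partner of a small subunit protein and is no ribosomal protein, so that the label does not hold for it.

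Ribosomal proteins assemble with ribosomal RNA into the large and the small subunit, which together translate every mRNA of a cell. The small subunit decodes the mRNA, the large subunit forms the peptide bond, and the stalk of the large subunit, built from the acidic P proteins, recruits the elongation factors. Because every ribosome needs 1 copy of most of these proteins, their mRNAs are made at a high and broadly coordinated level, and they are among the most abundant transcripts of dividing embryonic cells. Zebrafish keep duplicates of several of these genes, so a ribosome can draw the same protein from either of a pair of loci. In humans, loss of one copy of some of these genes causes anaemia with craniofacial defects, and neural crest is a tissue known for its sensitivity to impaired ribosome production.

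The experiment consists of 1 library of embryos treated with YM-254890 (YM), an inhibitor of Gq/11 proteins, at 100 µM from 16 to 36 hpf, and 1 library of embryos treated with the vehicle dimethyl sulfoxide (DMSO) over the same hours. All embryos carried the transgenes *sox10:mRFP*, which marks neural crest, and *fli1a:EGFP*, which marks crest-derived mesenchyme and also vessels. Each treatment was given to 70 embryos, of which 10 were kept apart. The heads of the others were pooled, and cells that carried both reporters were sorted at 36 hpf as cranial neural crest cells (NCCs). Transcripts were counted with unique molecular identifiers (UMIs), so that a value counts captured 3′ ends and does not scale with transcript length. With 1 library per condition the comparison of YM with DMSO has no replicate check, and p-values are left out. All intervals are 95% intervals and cover counting error only, and differences between the pooled batches of embryos cannot be told apart from differences between treatments.

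The YM library yielded 4429 cells with a median of 6527 UMIs, and the DMSO library 3612 cells with a median of 5866 UMIs, and 5 cell barcodes occurred in both. Clustering without the members gave 17 clusters, which were joined by their markers into 6 crest-like classes and 6 others. The crest-like classes held 97.1% of the YM and 96.4% of the DMSO cells and are named frontonasal-like, ventral arch-like, dorsal arch 1-like, dorsal arch 2-like, posterior arch-like and *gata3*-positive. Epidermal-like, macrophage-like, neutrophil-like, erythroid-like, pigment-like and muscle-like cells made up the remainder, with between 6 and 51 cells each in a library and no muscle-like cell in DMSO. The *sox10* reporter was nearly absent as a transcript, at 2.12e-04% of UMIs in YM and 7.57e-05% in DMSO, whereas EGFP took 0.727% in YM and 0.820% in DMSO crest-like cells. None of the members was among the 2000 most variable genes.

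RP transcripts made up nearly 1 in 2 UMIs. In crest-like cells they made up 46.3% of UMIs in YM (13568695 of 29294731, exact binomial interval 46.30% to 46.34%) and 45.1% in DMSO (9523850 of 21122775, 45.07% to 45.11%). Large subunit genes took 27.14% of UMIs in YM and 26.4% in DMSO, small subunit genes 19.2% in YM and 18.7% in DMSO, and the ratio of large to small subunit UMIs was 1.42 in YM and 1.41 in DMSO. Of the 83, 78 had at least 1000 counts for each 1000000 UMIs (CPM) in each library, from 1438 to 16130 CPM in YM and from 1354 to 15850 CPM in DMSO, a span of 11.2-fold in YM and 11.7-fold in DMSO. The medians of these 78 were 5526 CPM in YM and 5401 CPM in DMSO.

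The highest levels belonged to *rplp1* and *rplp2l* of the stalk and to small basic proteins. *rplp1*, an acidic stalk protein, stood at 16130 CPM in YM and 15850 CPM in DMSO. *rplp2l*, a form of its partner in the stalk, stood at 13000.3 CPM in YM and 12751 CPM in DMSO. *rpl39* had 12870 CPM in YM and 12652 CPM in DMSO, the main *rpl37* locus 12126 CPM in YM and 11891 CPM in DMSO, and *rps29*, the highest of the small subunit, 10968 CPM in YM and 11334 CPM in DMSO. These 5 held 14.1% of the RP UMIs in YM and 14.3% in DMSO, and 8 of the 10 highest members of one library were among the 10 highest of the other. *rplp0*, the stalk protein that anchors *rplp1* and *rplp2* to the ribosome, was lower, at 5958 CPM in YM and 5836 CPM in DMSO. The stalk gene *rplp2* was the lowest of the 78 members above 1000 CPM, at 1438 CPM in YM and 1354 CPM in DMSO.

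At the other end, 5 members were under 110 CPM in both libraries, all of them relatives or second copies of abundant members or, in 1 case, no ribosomal protein. *rpl7l1*, related to *rpl7*, had 97.0 CPM in YM and 103 CPM in DMSO. *rps27l*, a form of *rps27* that is a p53 target in human cells, had 54.1 CPM in YM and 37.7 CPM in DMSO. *rps19bp1* had 40.5 CPM in YM and 40.6 CPM in DMSO, and the second *rpl37* locus 20.1 CPM in YM and 21.2 CPM in DMSO. *rps8b*, a duplicate of *rps8a*, was the lowest, with 4 UMIs in all crest-like cells in YM and 5 UMIs in DMSO. It is the only member that did not reach 20 UMIs in each library and enters no ratio below, which leaves 82 members. The rule by symbol also misses the ribosomal protein gene with the highest level of all. *si:dkey-151g10.6*, to which RefSeq gives the synonym *rpl41*, stood at 33294 CPM in YM and 32858 CPM in DMSO, above every member, and is not counted in any share given here. Its log2 ratio of YM to DMSO was 0.019 (0.015 to 0.023).

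The first comparison asks how these transcripts differed between YM-treated and DMSO-treated NCCs. The RP share of UMIs was 1.23 percentage points higher in YM than in DMSO crest-like cells, a log2 ratio of 0.039 (0.038 to 0.040), which was 0.069 with RP and mitochondrial UMIs left out of the total and 0.090 with TMM factors. The gap is small beside the spread between single cells, in which the mean share was 46.1% ± 5.40 in YM (SD over 4299 cells) and 44.9% ± 5.58 in DMSO (SD over 3481 cells). From the 10th to the 90th percentile, cells ran from 39.5% to 53.04% in YM and from 37.9% to 52.04% in DMSO, so the libraries overlapped over most of their range.

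The direction was the same in each crest-like class. The share was 41.99% in YM and 40.4% in DMSO frontonasal-like cells. It was 45.4% in YM and 45.1% in DMSO ventral arch-like cells, the smallest gap of the 6. Dorsal arch 1-like cells had 47.9% in YM and 47.4% in DMSO, dorsal arch 2-like cells 49.0% in YM and 47.8% in DMSO, and posterior arch-like cells 48.7% in YM and 47.4% in DMSO. *gata3*-positive cells had 43.4% in YM and 41.4% in DMSO, the largest gap of the 6 at 1.95 points. The log2 ratios ran from 0.0099 in ventral arch-like to 0.066 in *gata3*-positive cells. Split further, the share of summed UMIs was higher in YM in 11 of 11 crest-like clusters. By the median over cells, the smaller dorsal arch 1-like cluster went the other way, at 46.98% in YM and 47.46% in DMSO. The classes were not equally common in the libraries. Ventral arch-like cells were 17.7% of YM and 26.7% of DMSO cells, and dorsal arch 2-like cells 16.4% of YM and 10.6% of DMSO cells. Values over all crest-like cells therefore also carry the mix of classes. The 10 ventral arch markers held 0.179% of UMIs in YM and 0.288% in DMSO ventral arch-like cells. The study reports some of these markers, among them *dlx4a* and *dlx4b*, as lowered by YM in its ventral arch cluster. Lower marker levels and a different set of cells cannot be told apart here, so this class may not hold like cells in both libraries.

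Several other measures moved with this difference. The YM library was the deeper one per cell. Over all crest-like cells the median share was higher in YM in 6 of 6 bins of UMIs per cell, for example 46.9% in YM and 45.6% in DMSO among cells with 5000 to 7000 UMIs. These bins mix classes, and within the classes it was higher in YM in 25 of 32 bins with cells of both libraries, or 20 of 23 with at least 20 cells of each. Among the bins with the other direction were ventral arch-like cells with 3500 to 5000 UMIs, at 45.4% in YM and 46.9% in DMSO, and dorsal arch 1-like cells under 2000 UMIs, at 39.8% in YM and 43.8% in DMSO. With each cell thinned to 3500 UMIs, which left out 372 YM and 394 DMSO cells below that depth, the log2 ratio was 0.038. Thinning leaves the expected share of each cell unchanged, so this value does not test whether the share depends on depth. Over all crest-like cells the median share was also higher in YM in each phase of the cell cycle, with 46.8% in YM and 45.3% in DMSO for cells called G1, 46.6% in YM and 45.4% in DMSO for S, and 45.2% in YM and 44.1% in DMSO for G2M. Within the classes this held in 17 of 18 pairs of class and phase, the exception being posterior arch-like cells in S, at 48.1% in YM and 48.2% in DMSO. Mitochondrial transcripts went the other way, at 1.24% of UMIs in YM and 1.37% in DMSO. Free RNA was estimated at 0.364% of UMIs in YM and 2.36% in DMSO cells, and near-empty barcodes held more RP transcripts than cells did, 51.1% in YM and 48.9% in DMSO. After free RNA was subtracted the log2 ratio was 0.041. The part of the mitochondrial share in the difference was not tested.

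**Figure D1:**
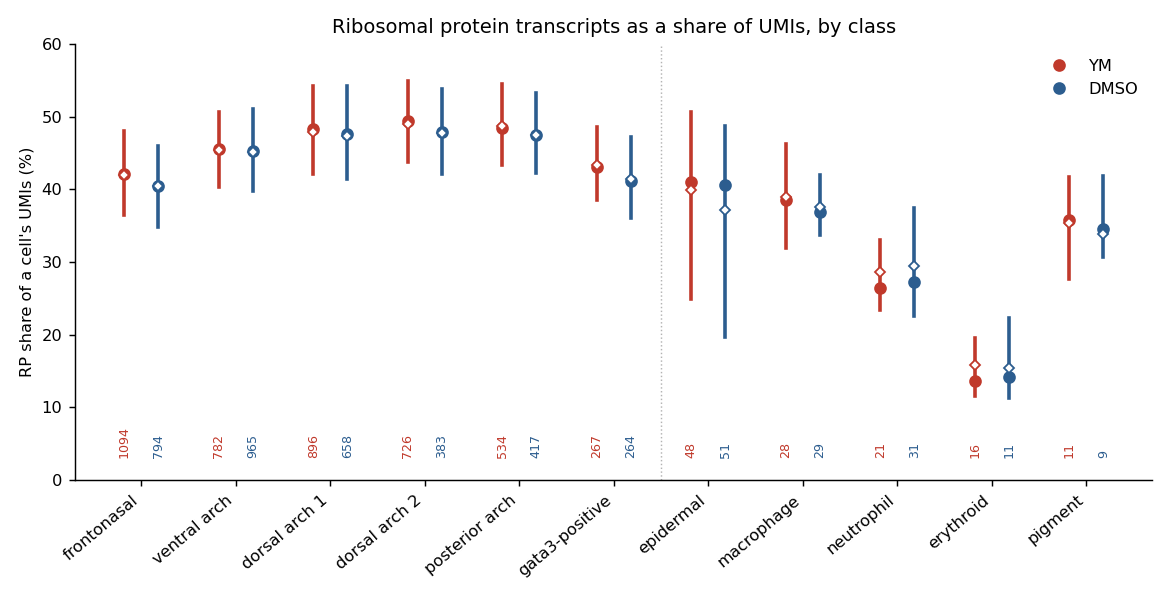
RP share of a cell's UMIs by class, YM left of DMSO. Filled points are medians over cells, vertical lines run from the 10th to the 90th percentile of cells, open diamonds are the share of the summed UMIs, and the vertical numbers are cells per class. In the 6 crest-like classes, left of the dotted line, the shares of summed UMIs run from 41.99% to 49.0% in YM and from 40.4% to 47.8% in DMSO, and erythroid-like cells are lowest, at 15.8% in YM and 15.4% in DMSO.

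Gene by gene, the members shifted together by a small amount. Of the 82 members, 63 had a log2 ratio of YM to DMSO above 0, whereas 39.4% of the 11164 genes that reached 20 UMIs in both libraries did. The median was 0.039 for the members and -0.052 for all 11164 genes. Counting intervals lay above 0 for 60 members (8.18% of all genes) and below 0 for 10 (16.6% of all genes), and reached 0 for 12. Most of the 11164 genes have few UMIs and wide intervals. Among the 117 non-members with at least 500 CPM, which are counted with a precision closer to that of the members, 39.3% had a ratio above 0, 35% an interval above 0 and 57.3% an interval below 0, with a median of -0.062. Since the members hold nearly 1 UMI in every 2, a higher RP share and a lower CPM of the other genes go together by construction. Which of them moved cannot be told from shares and was not tested. Both subunits took part, with 37 of 48 large subunit genes above 0 (median 0.039) and 26 of 33 small subunit genes above 0 (median 0.045).

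Almost all of these ratios were small. With a threshold on the ratio set at a log2 value of 0.32 in size, used for all calls below, 1 of the 82 members was higher in YM and 0 were lower, against 5.68% of all 11164 genes called higher and 10.8% called lower. Among genes with at least 500 CPM, 1.54% of 195 were called higher and 0% lower, and none of these was a member. A log2 ratio of 0.1 in size was reached by 13 members, by 62% of the 11164 genes and by 55.6% of the 117 abundant non-members.

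The member past the threshold was *rps27l*. It had 1584 UMIs in YM and 796 UMIs in DMSO crest-like cells, or 54.1 CPM in YM and 37.7 CPM in DMSO, a log2 ratio of 0.52 (0.40 to 0.65). Its interval lay above 0 in all 6 crest-like classes, with ratios of 0.35 in frontonasal-like, 0.50 in ventral arch-like, 0.38 in dorsal arch 1-like, 0.59 in dorsal arch 2-like, 0.73 in posterior arch-like and 0.69 in *gata3*-positive cells. *rps27l* stood also on the list of p53 targets, on which 9 other genes reached 20 UMIs in both libraries. Among those 9, *cdkn1a*, an inhibitor of the cell cycle, was higher past the threshold at 11.3 CPM in YM and 7.81 CPM in DMSO (0.53, 0.25 to 0.81). *tp53inp1* was past it in the other direction at 2.29 CPM in YM and 3.74 CPM in DMSO (-0.71, -1.20 to -0.22). *ccng1*, the most abundant of the list, stood at 168 CPM in YM and 151 CPM in DMSO (0.16, 0.094 to 0.22), and *mdm2* at 7.17 CPM in YM and 6.96 CPM in DMSO (0.043, -0.27 to 0.36). The 9 had a median of 0.043 and included 6 above 0.

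The next members in order were abundant genes of both subunits. *rps27.2*, the less abundant of a pair of *rps27* genes, had 1950 CPM in YM and 1723 CPM in DMSO (0.18, 0.16 to 0.20). *rpl29* had 1607 CPM in YM and 1422 CPM in DMSO (0.18, 0.16 to 0.20). *rps18*, a protein of the head of the small subunit, had 4288 CPM in YM and 3845 CPM in DMSO (0.16, 0.14 to 0.17). *rpl6* of the large subunit had 2702 CPM in YM and 2452 CPM in DMSO (0.14, 0.12 to 0.16). For these 4 the interval was above 0 in each of the 6 crest-like classes, and the class ratios ran from 0.10 for *rps27.2* in dorsal arch 2-like cells to 0.26 for *rps27.2* and *rpl29* in *gata3*-positive cells.

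The lowest ratio was that of *rpl9*, a large subunit protein, with 2812 CPM in YM and 3037 CPM in DMSO (-0.11, -0.13 to -0.096). *rpl7l1* followed at -0.082 (-0.16 to -0.00086) and *rpl26*, which lies near the exit of the peptide tunnel, at -0.078 (-0.091 to -0.065) with 3601 CPM in YM and 3800 CPM in DMSO. The second *rpl37* locus, at -0.071 (-0.25 to 0.11), could not be told from 0 with 590 UMIs in YM and 447 UMIs in DMSO. *rpl12*, a protein at the base of the P stalk, had 6683 CPM in YM and 6942 CPM in DMSO (-0.055, -0.065 to -0.045).

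Over the classes, 46 members were above 0 in all 6 and 4 were below 0 in all 6, namely *rpl9*, *rpl12*, *rpl26* and *rps29*. Of the 4164 genes with at least 20 UMIs in each class and library, 6.89% were above 0 in all 6 and 14.6% below 0 in all 6. Among 117 abundant non-members these shares were 26.5% and 40.2%. Intervals lay above 0 in all 6 classes for 26 members (1.18% of all genes, 13.7% of the abundant non-members), among them *rps2*, *rps3*, *rps18*, *rpl4*, *rpl6* and *rpl10*, and below 0 in all 6 for *rpl9* and *rps29* (1.3% of all genes, 20.5% of the abundant non-members). *rps29* stood between 10284 and 11489 CPM over the classes in YM and between 10640.3 and 11852 CPM in DMSO, with ratios from -0.071 to -0.041. The signs of single members were not tested with TMM factors, which raise all ratios alike.

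**Figure D2:**
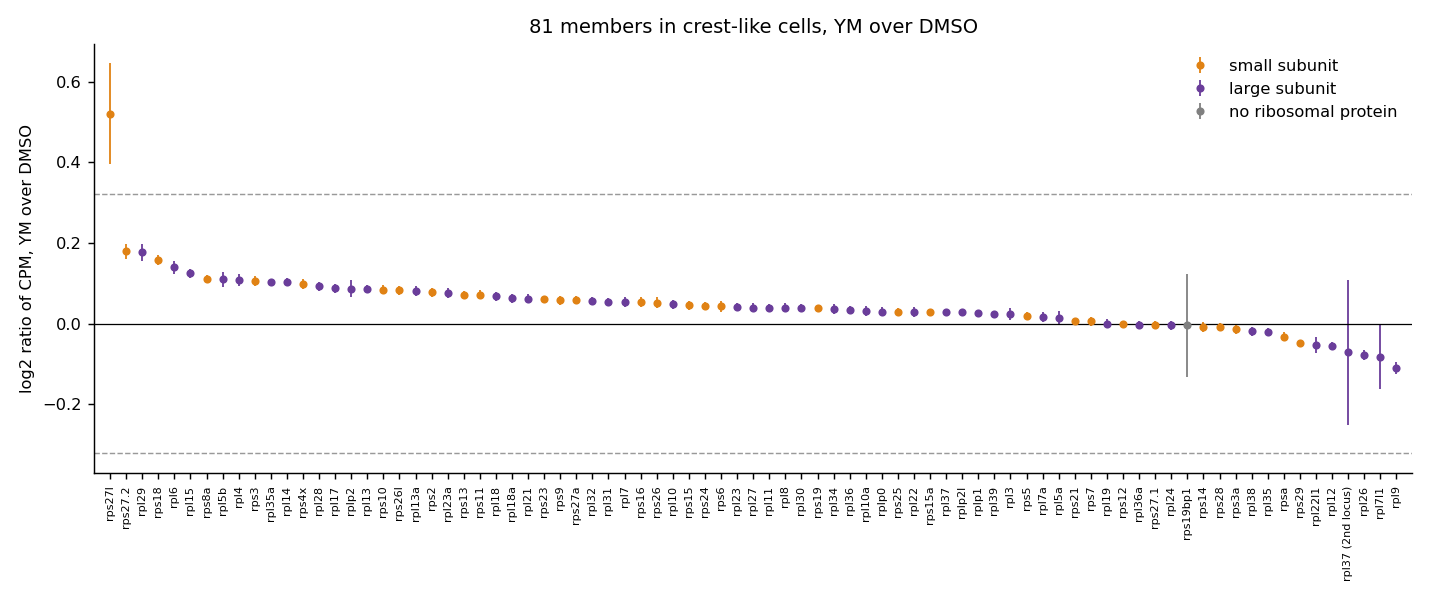
Log2 ratio of CPM in YM over DMSO crest-like cells for 81 of the 82 members with 20 UMIs or more in both libraries, ordered from high to low. Points are coloured by subunit, bars are 95% counting intervals, and dashed lines mark a log2 ratio of 0.32 in size. Only *rps27l*, at 0.52, lies outside the dashed lines, and the other members shown lie between 0.18 and -0.11.

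The second comparison asks how the members differed between the crest-like classes, each class against all other crest-like cells of its own library, so that YM and DMSO give a value each. The order of the classes by RP share was the same in both libraries, from dorsal arch 2-like over posterior arch-like, dorsal arch 1-like, ventral arch-like and *gata3*-positive to frontonasal-like cells. The highest and the lowest class were 7.02 points apart in YM and 7.36 points apart in DMSO, several times the gap between the libraries. Not every step of this order was resolved. In DMSO the counting interval of posterior arch-like cells (47.4% to 47.5%) met that of dorsal arch 1-like cells (47.3% to 47.4%), whereas in YM all neighbouring intervals were apart. These intervals leave out the spread between cells, so they do not settle the order of neighbouring classes. By the median over cells, DMSO dorsal arch 1-like cells (47.7%) stood above posterior arch-like cells (47.5%). Without cell cycle regression posterior arch-like cells were highest in both libraries. Between single cells the classes overlapped, since the SD within a class was between 4.13 and 4.93 points in YM and between 4.39 and 5.30 points in DMSO. The classes low in RP share were also the shallower ones, with a median of 4978 UMIs in YM and 4591 in DMSO frontonasal-like cells, and 5049 UMIs in YM and 4504 in DMSO *gata3*-positive cells. With all cells thinned to 3500 UMIs, the gap between the highest and the lowest class was 7.34 points in YM and 7.59 points in DMSO. Thinning leaves the expected share of a cell unchanged, so the part of depth in this gap was not tested.

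In frontonasal-like cells, which lie around the eyes and the forebrain, all 82 members were lower than in the other crest-like cells in both libraries. This holds for 28.7% of all 7569 genes tested in that comparison. For the 78 members above 1000 CPM the mean log2 ratio of the libraries had a median of -0.18 (-0.17 in YM, -0.19 in DMSO) and ran from -0.33 for *rpl4* to -0.043 for *rps26*. *gata3*-positive cells were lower in 81 of 82 members in both libraries (20.2% of 4314 genes), with a median of -0.11 for the 78 and a span from -0.20 for *rplp0* to -0.021 for *rps26*. The 3 frontonasal-like clusters had RP shares of 41.5% to 42.4% in YM and 39.5% to 41.1% in DMSO, so the low level was shared by all 3. These ratios depend on the total, and leaving RP UMIs out of it widens them by construction. With RP and mitochondrial UMIs left out of it, the log2 ratio of the RP share was -0.31 in YM and -0.33 in DMSO frontonasal-like cells (-0.17 in YM and -0.19 in DMSO with all UMIs), and -0.18 in YM and -0.23 in DMSO *gata3*-positive cells (-0.099 in YM and -0.13 in DMSO with all UMIs).

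The dorsal and posterior arch-like classes stood above the others. Of 82 members, 77 were higher in both libraries in dorsal arch 1-like (19.3% of 7059 genes), 78 in dorsal arch 2-like (15.7% of 5834 genes) and 80 in posterior arch-like cells (28.6% of 6648 genes), with medians for the 78 abundant members of 0.077, 0.099 and 0.086. With RP and mitochondrial UMIs left out of the total, the log2 ratio of the RP share was 0.12 in YM and 0.16 in DMSO dorsal arch 1-like, 0.19 in YM and 0.17 in DMSO dorsal arch 2-like, and 0.17 in YM and 0.16 in DMSO posterior arch-like cells, in each case over 1.5 times its value with all UMIs. Such a growth follows by construction from the high RP share. In the dorsal arch 2-like class these 78 lay close together, from 0.039 for *rps2* to 0.14 for *rps26l*. Ventral arch-like cells, the source of the lower jaw, stood near the mean of the crest, with 14 members higher and 41 lower in both libraries (42.8% and 32.6% of 8037 genes) and a median of -0.021.

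Few members were past the threshold in a crest-like class, and those that were belonged to the 4 with low levels. In ventral arch-like cells *rpl7l1* and *rps19bp1* were higher past the threshold in both libraries (11.2% of 8037 genes called higher), and none was lower (9.67% called lower). *rpl7l1* had 130 CPM in YM and 126 CPM in DMSO ventral arch-like cells, against 76.5 to 102 CPM in the other classes in YM and 76.8 to 113 CPM in DMSO. Its log2 ratio was 0.56 (0.45 to 0.68) in YM and 0.45 (0.32 to 0.57) in DMSO. *rps19bp1* had 50.8 CPM in YM and 47.1 CPM in DMSO ventral arch-like cells, with ratios of 0.43 (0.24 to 0.62) in YM and 0.32 (0.12 to 0.53) in DMSO. At clustering resolution 0.3 its DMSO ratio was 0.30, short of the threshold.

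In posterior arch-like cells *rps27l* and the second *rpl37* locus were higher past the threshold in both libraries (5.23% of 6648 genes called higher), and none was lower (11.3%). *rps27l* had 78.3 CPM in YM and 47.1 CPM in DMSO posterior arch-like cells, ratios to the other crest-like cells of 0.67 (0.50 to 0.84) in YM and 0.39 (0.13 to 0.65) in DMSO. As a mean over cells its DMSO ratio was 0.27, short of the threshold. The second *rpl37* locus had 27.8 CPM in YM and 27.07 CPM in DMSO, ratios of 0.58 (0.29 to 0.86) in YM and 0.43 (0.080 to 0.77) in DMSO. It was lower past the threshold in frontonasal-like cells (7.61% of genes called lower) at 12.2 CPM in YM and 12.7 CPM in DMSO, ratios of -0.86 in each library. *rps27l* was lower past the threshold in *gata3*-positive cells (3.31% called lower) at 41.0 CPM in YM and 25.3 CPM in DMSO. No member was higher past it in frontonasal-like (28.9% called higher) or *gata3*-positive cells (14.5%). No member was past the threshold in the dorsal arch 1-like (3.07% called higher, 6.87% lower) or the dorsal arch 2-like class (2.88% called higher, 7.88% lower).

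Among the abundant members the stalk protein *rplp0* and *rpl4* of the large subunit had the widest ranges over the crest-like classes. *rplp0* had 6675 CPM in YM and 6486 CPM in DMSO posterior arch-like cells, where its ratio was highest at 0.20 in YM and 0.18 in DMSO. In frontonasal-like cells it had 4979 CPM in YM and 4814 CPM in DMSO, with ratios of -0.32 in YM and -0.33 in DMSO. The range of its log2 level over the 6 classes was 0.42 in YM and 0.43 in DMSO, and that of *rpl4* 0.41 in YM and 0.44 in DMSO, whereas the median range of the 82 members was 0.25 and 78 of them stayed under 0.5. The wider ranges were those of the second *rpl37* locus (1.14), *rps27l* (0.92), *rpl7l1* (0.68) and *rps19bp1* (0.55), for which counting error is larger.

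**Figure D3:**
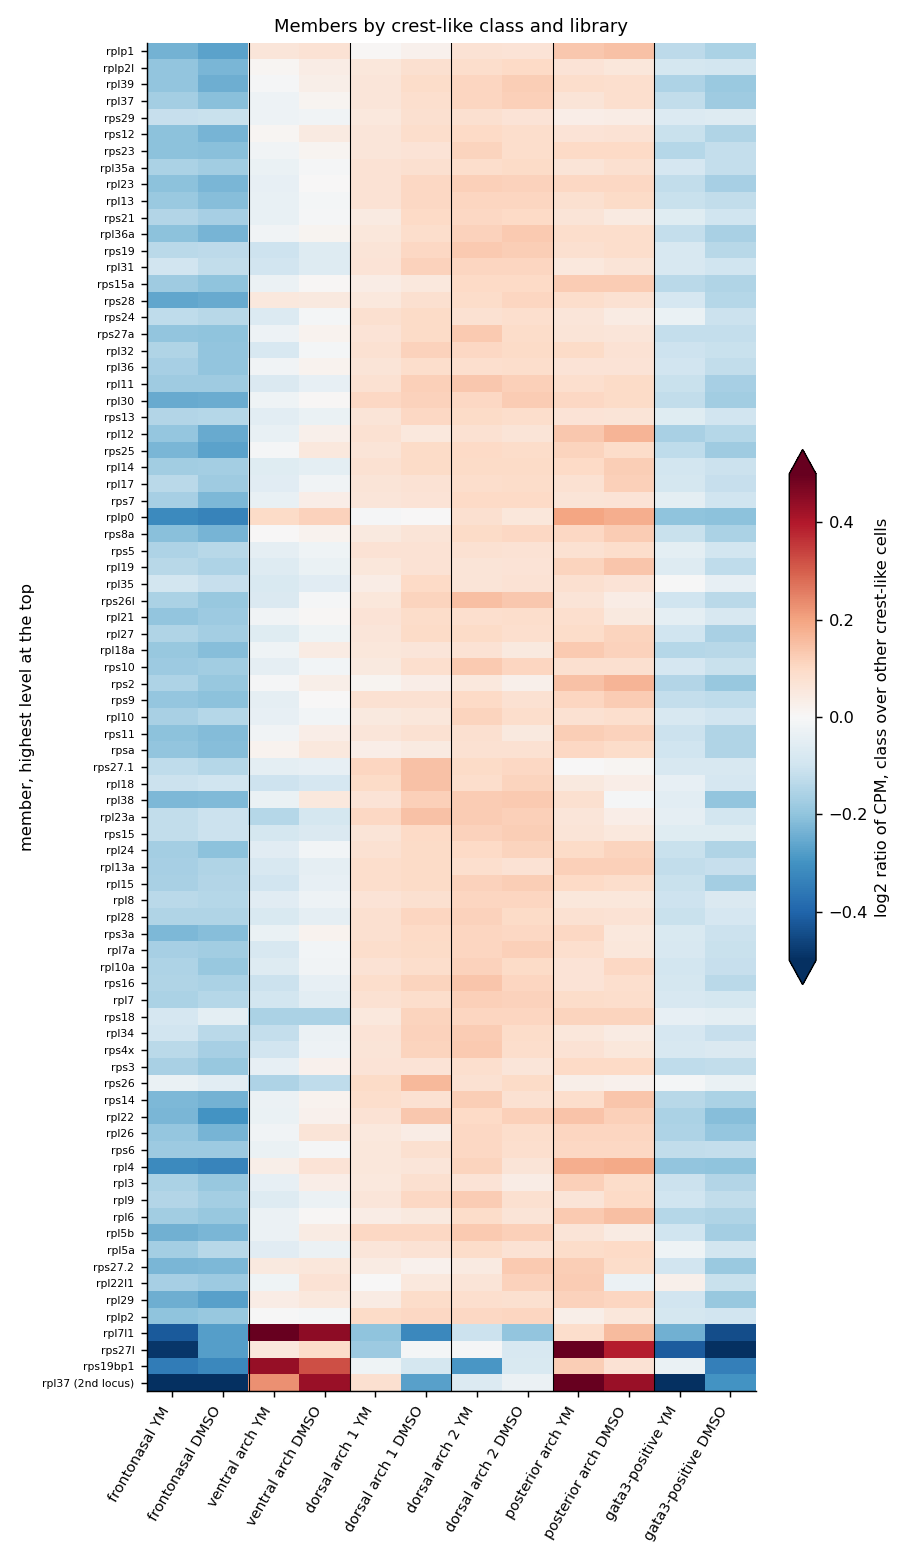
Log2 ratio of CPM in a class over all other crest-like cells of the same library, for 81 of the 82 members (rows, highest level at the top) and 6 classes, YM left of DMSO in each pair of columns. Red is higher and blue lower in the class, and colours saturate beyond 0.5 in size. Frontonasal-like and *gata3*-positive columns are blue throughout apart from a few near 0, and the darkest cells are in the last 4 rows, the members under 110 CPM.

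Duplicates were compared by their share of the UMIs of the pair. Reads shared between near-identical copies may be assigned to either or dropped, so the proportions depend on the counting, and the part of this was not tested. *rpl5a* and *rpl5b* encode the protein that binds 5S ribosomal RNA, and *rpl5b* gave 50.7% of the pair's UMIs in YM (50.4% to 50.9%) and 49.0% in DMSO (48.6% to 49.3%). Its share was higher in YM in each of the 6 classes, from 49.3% to 51.3% in YM and from 47.7% to 49.8% in DMSO. *rps27.2* gave 26.4% of the UMIs of *rps27.1* and *rps27.2* in YM (26.2% to 26.6%) and 24.0% in DMSO (23.8% to 24.2%), and was likewise higher in YM in each class, with intervals that did not overlap in any of the 6. *rps27.1* itself had 5444 CPM in YM and 5458 CPM in DMSO, so that the 2 loci of the pair did not shift alike. *rps27l* added 0.726% of the UMIs of all 3 *rps27* genes in YM and 0.522% in DMSO.

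*rps26* gave 40.3% of the UMIs of *rps26* and *rps26l* in YM and 40.8% in DMSO, and was lowest in ventral arch-like cells (39.2% in YM, 39.4% in DMSO) and highest in frontonasal-like cells (42.002% in YM, 42.7% in DMSO). *rpl22l1*, a relative of *rpl22*, gave 30.5% of that pair in YM and 31.7% in DMSO. *rplp2* gave 9.96% of the UMIs of *rplp2* and *rplp2l* in YM and 9.60% in DMSO. *rpl7l1* gave 2.19% of the UMIs of *rpl7* and *rpl7l1* in YM and 2.40% in DMSO, and 3.06% in YM and 2.998% in DMSO ventral arch-like cells. *rps8b* gave 4 of 173752 UMIs of its pair in YM and 5 of 116062 in DMSO, and the second *rpl37* locus gave 0.166% of its pair in YM and 0.178% in DMSO.

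The sort also held cells of other types, in which the members had lower and more uneven levels. Counting error is larger in these small classes, and its part in the unevenness was not tested. In bulk sums of so few cells, fewer transcripts of a gene and more transcripts of other genes cannot be told apart. Erythroid-like cells had an RP share of 15.8% in YM (16 cells) and 15.4% in DMSO (11 cells), beside 11 haemoglobin and other erythroid markers at 69.0% of UMIs in YM and 68.8% in DMSO. Neutrophil-like cells had 28.7% in YM (21 cells) and 29.4% in DMSO (31 cells), with 18.7% of UMIs in YM and 17.7% in DMSO from 9 neutrophil markers. Pigment-like cells had 35.3% in YM and 33.8% in DMSO, macrophage-like cells 38.9% in YM and 37.6% in DMSO, epidermal-like cells 40.0% in YM and 37.1% in DMSO, and the 6 muscle-like cells of YM 32.8%. When the 10 most abundant non-member genes of each class were left out of its total, a step chosen after the shares were seen, the RP share was 51.8% in YM and 50.2% in DMSO erythroid-like cells. It was 39.0% in YM and 38.9% in DMSO neutrophil-like cells, 43.8% in YM and 42.1% in DMSO macrophage-like cells, and 45.9% in YM and 44.1% in DMSO frontonasal-like cells. It was 42.3% in YM and 40.6% in DMSO pigment-like, 44.1% in YM and 41.5% in DMSO epidermal-like, and 41.96% in YM muscle-like cells. Frontonasal-like cells had the lowest such share of the crest-like classes, and of the other classes the erythroid-like cells alone were above it.

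Against the crest-like cells, all 78 members tested in erythroid-like cells were lower past the threshold in both libraries, where 77.3% of the 220 genes tested were, and 96.7% of the 150 among them with at least 500 CPM in crest-like cells. In neutrophil-like cells 75 of 78 were (38.2% of 618 genes, and 83% of the 182 genes with at least 500 CPM in crest-like cells), in pigment-like cells 50 of 78 (27% of 315 genes, and 53.1% of 160 such abundant genes), in macrophage-like cells 13 of 79 (20.4% of 1041 genes, and 36% of 189 abundant ones) and in epidermal-like cells 3 of 78 (14.8% of 1036 genes, and 16.5% of 194 abundant ones). All shares of genes and of abundant genes in these comparisons include the members themselves. The member counts are therefore partly set against themselves. The members past the threshold in epidermal-like cells were *rplp2l*, *rps3a* and *rpl22l1*, and *rplp2* and *rpl34* were among the 3 members not past it in neutrophil-like cells. Higher past the threshold were *rplp2* and *rps27l* in macrophage-like cells (46.4% of 1041 genes) and 0 in epidermal-like (20.6%), neutrophil-like (43.2%), erythroid-like (16.4%) and pigment-like cells (43.5%). The call for *rps27l* was fixed by the filter on UMIs, as described below. Among genes with at least 500 CPM in crest-like cells, fewer were called higher, 12.2% in macrophage-like and 2.06% in epidermal-like cells. These shares were 3.85% in neutrophil-like, 0.667% in erythroid-like and 9.38% in pigment-like cells.

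Macrophage-like cells differed from the crest in the makeup of their RP transcripts. *rplp2* had 1833 CPM in YM and 1717 CPM in DMSO macrophage-like cells, against 1438 CPM in YM and 1354 CPM in DMSO crest-like cells, log2 ratios of 0.35 (0.22 to 0.48) in YM and 0.34 (0.20 to 0.48) in DMSO. With RP and mitochondrial UMIs left out of the total its ratio was 0.18 in YM and 0.18 in DMSO, short of the threshold. *rps27l* had 116 CPM in YM and 92.4 CPM in DMSO macrophage-like cells, on 32 UMIs in YM and 22 UMIs in DMSO. Its ratios were 1.1 (0.55 to 1.60) in YM and 1.29 (0.61 to 1.90) in DMSO. At its crest-like level, 54.1 CPM in YM and 37.7 CPM in DMSO, *rps27l* would have had too few UMIs here for a ratio. It could enter this comparison only by being higher, so the filter on UMIs fixed its call past the threshold. The other members with low levels did not enter the comparison. *rpl34* was at 0.075 in YM and 0.011 in DMSO, while the 78 abundant members had a median of -0.27. At the low end, *rpl22l1* had 699 CPM in YM and 752 CPM in DMSO macrophage-like cells, against 1657 CPM in YM and 1719 CPM in DMSO crest-like cells, ratios of -1.25 (-1.46 to -1.04) in YM and -1.19 (-1.41 to -0.98) in DMSO. *rpl5b* and *rpsa*, which is also known as a laminin receptor, were at -0.50 in YM and -0.49 in DMSO.

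In neutrophil-like cells *rplp2* and *rpl34* were among the 3 highest members by the mean log2 ratio of the libraries. *rplp2* (-0.26 in YM, -0.20 in DMSO) and *rpl34* (-0.25 in YM, -0.25 in DMSO) stood well above the median of the members, which was -0.66. *rpl5b* had 884 CPM in YM and 806 CPM in DMSO neutrophil-like cells, against 2056 CPM in YM and 1906 CPM in DMSO crest-like cells, ratios of -1.22 (-1.45 to -0.99) in YM and -1.24 (-1.43 to -1.05) in DMSO. *rps27.2* was at -1.28 in YM and -1.04 in DMSO, and *rpl22l1* at -1.27 in YM and -1.01 in DMSO. Erythroid-like cells had *rplp2* (-1.28 in YM, -1.02 in DMSO), *rpl11* (-1.19 in YM, -1.17 in DMSO) and *rpsa* (-1.14 in YM, -1.35 in DMSO) above their median of -1.55, and *rpl5b* (-2.15 in YM, -2.17 in DMSO), *rpl26* (-1.86 in YM, -1.85 in DMSO) and *rplp1* (-1.80 in YM, -1.90 in DMSO) below it.

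Pigment-like and epidermal-like cells were nearer to the crest. In pigment-like cells *rpl36a* had 9277 CPM in YM and 8266 CPM in DMSO, ratios of 0.12 (0.028 to 0.21) in YM and -0.049 (-0.17 to 0.073) in DMSO, the first of which had the opposite sign when RP and mitochondrial UMIs were left out of the total. *rps27.2* (0.056 in YM, -0.020 in DMSO) and *rpl29* (-0.032 in YM, -0.20 in DMSO) followed, and *rpl5b* (-0.63 in YM, -0.73 in DMSO), *rps9* (-0.63 in YM, -0.64 in DMSO) and *rps3* (-0.70 in YM, -0.56 in DMSO) were lowest. In epidermal-like cells *rplp2* (0.047 in YM, 0.031 in DMSO), *rpl23a* (-0.093 in YM, -0.17 in DMSO) and *rps26l* (-0.12 in YM, -0.15 in DMSO) were highest and *rpl22l1* (-0.43 in YM, -0.36 in DMSO), *rplp2l* (-0.34 in YM, -0.39 in DMSO) and *rpl7l1* (-0.56 in YM, -0.52 in DMSO) lowest, the last on 16 UMIs in YM and 22 UMIs in DMSO.

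**Figure D4:**
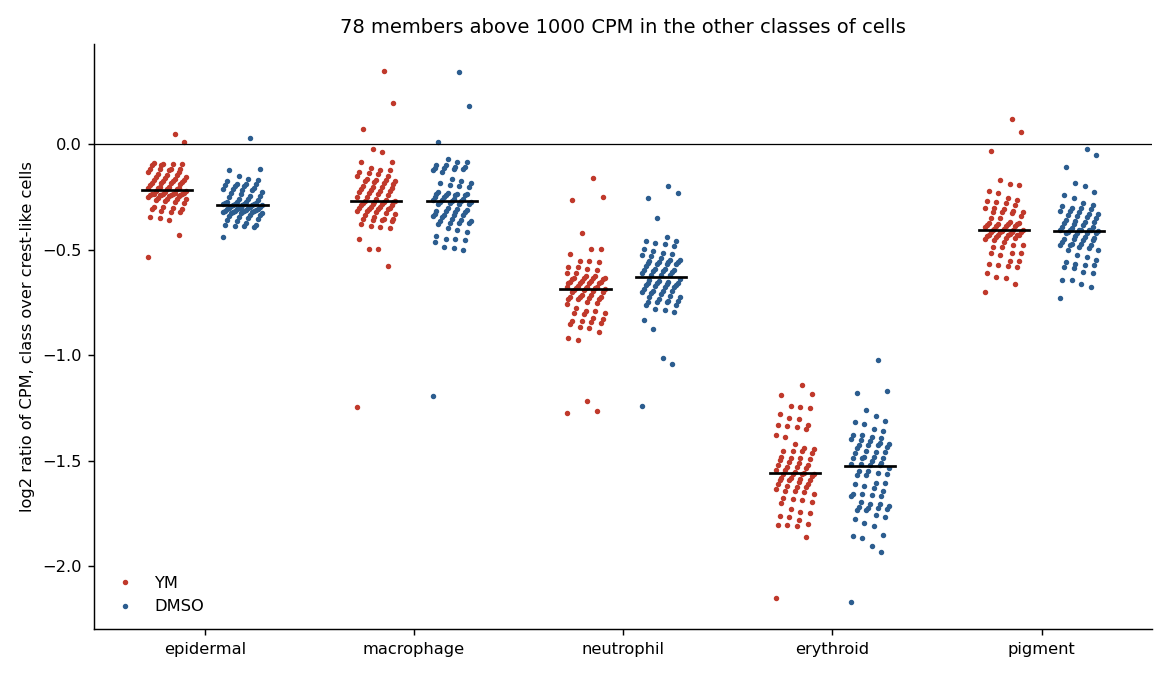
Log2 ratio of CPM in each of 5 other classes over the crest-like cells of the same library for 78 members above 1000 CPM, YM left of DMSO. Each point is a member and black lines are medians. The medians are lowest in erythroid-like cells, at -1.56 in YM and -1.53 in DMSO, and *rplp2* is the highest and *rpl22l1* the lowest point in macrophage-like cells.

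These differences appeared within the pairs of duplicates too, where the total of the class cancels. *rpl22l1* gave 15.9% of the UMIs of *rpl22* and *rpl22l1* in YM macrophage-like cells (193 of 1217, 13.8% to 18.04%) and 17.7% in DMSO (179 of 1011, 15.4% to 20.2%), against 30.5% in YM and 31.7% in DMSO crest-like cells. In neutrophil-like cells it gave 21.2% in YM (17.9% to 24.7%) and 22.7% in DMSO (20.2% to 25.3%). *rplp2* gave 15.2% of its pair in YM (14.0% to 16.5%) and 14.8% in DMSO (13.5% to 16.2%) macrophage-like cells, against 9.96% in YM and 9.60% in DMSO crest-like cells, and 12.7% in YM and 12.5% in DMSO epidermal-like cells. *rpl5b* gave 41.6% of its pair in YM (36.6% to 46.7%) and 38.0% in DMSO (34.1% to 42.02%) neutrophil-like cells, and 39.6% in YM and 41.3% in DMSO erythroid-like cells. *rps27.2* gave 33.4% of its pair in YM (29.7% to 37.3%) and 31.1% in DMSO (26.3% to 36.2%) pigment-like cells, and 19.9% in YM and 18.5% in DMSO neutrophil-like cells. *rps26* gave 33.2% in YM and 36.2% in DMSO macrophage-like cells. No *rpl7l1* UMI was found in erythroid-like cells, 0 of 442 UMIs of the pair in YM and 0 of 235 in DMSO, which allows a share of up to 0.831% in YM and 1.56% in DMSO.

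**Figure D5:**
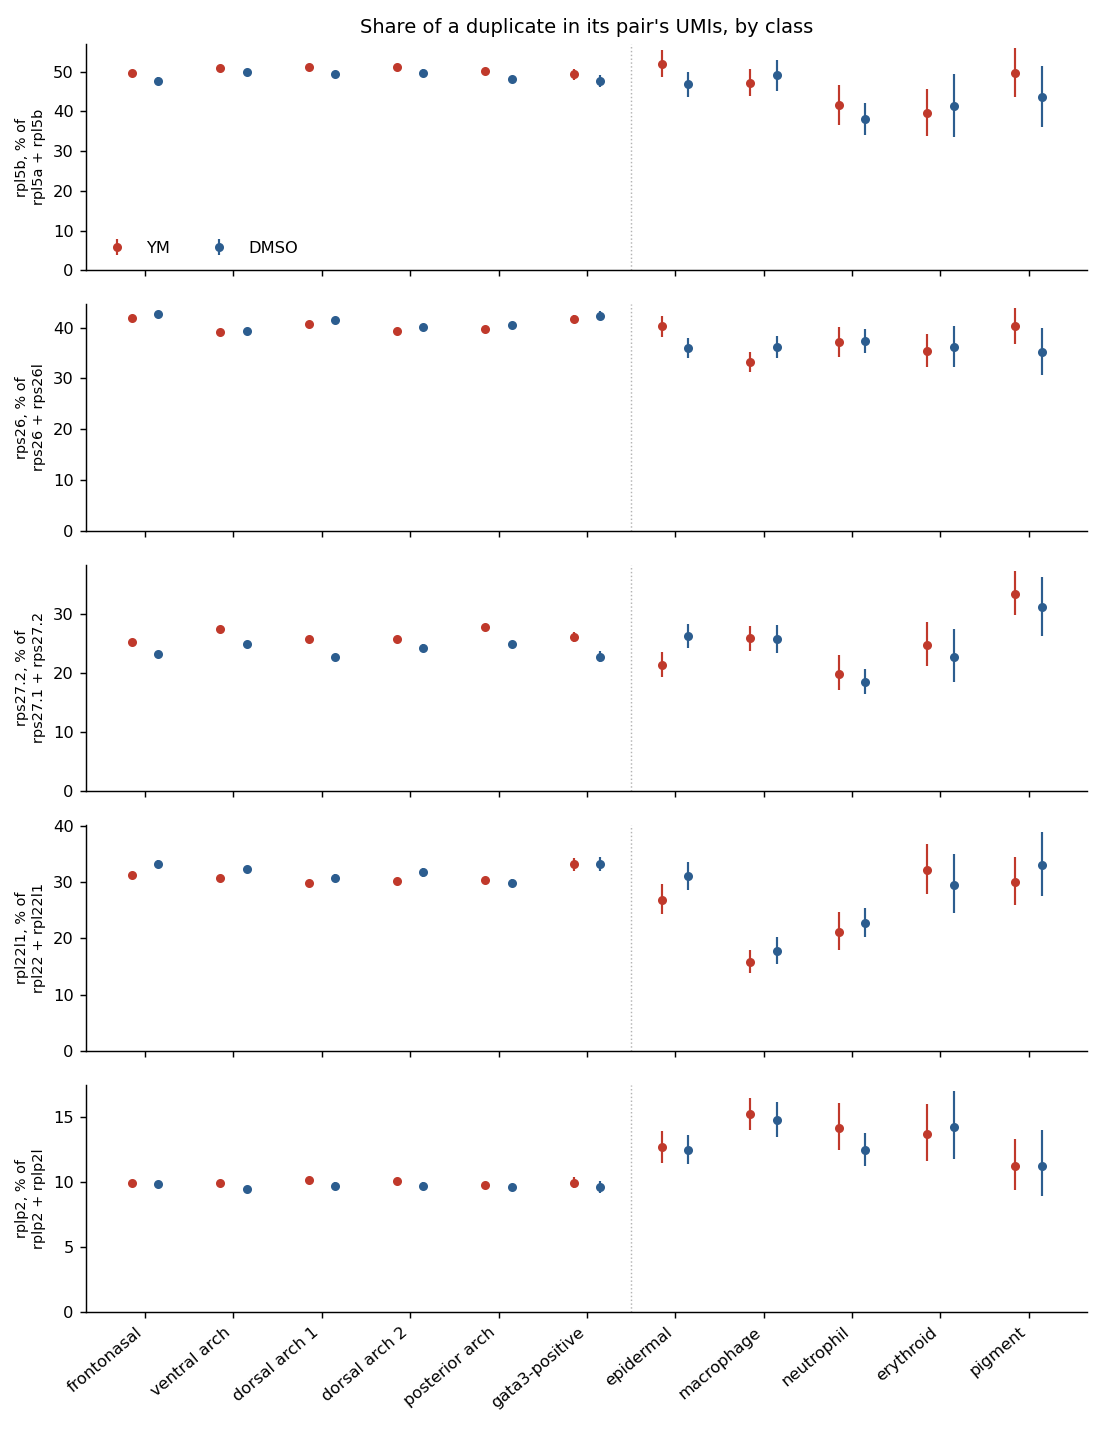
Share of one gene in the UMIs of its pair by class, YM left of DMSO, with exact binomial 95% intervals, for *rpl5b*, *rps26*, *rps27.2*, *rpl22l1* and *rplp2* from top to bottom. The 6 crest-like classes left of the dotted line lie within a few points of each other, *rpl22l1* is lowest in macrophage-like cells at 15.9% in YM and 17.7% in DMSO, and *rplp2* is above its crest-like share there at 15.2% in YM and 14.8% in DMSO.

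Other genes of translation were compared by the same threshold, for which 5.68% of all 11164 genes were called higher and 10.8% lower, with 39.4% above 0 and a median of -0.052. The 7 ribosome-associated genes, among them *faua*, which encodes a ribosomal protein fused to a ubiquitin-like protein, and *rack1*, a scaffold on the small subunit, had 0 of 7 past the threshold in crest-like cells in either direction, 6 above 0 and a median of 0.078. *faua* had 3347 CPM in YM and 3251 CPM in DMSO (0.042), and *rack1* 3219 CPM in YM and 3050 CPM in DMSO (0.078). Of 8 elongation factors tested, 0 were past the threshold and 7 above 0, with a median of 0.098 and *eef1g* highest at 0.15. Of 63 genes taken by the symbols of initiation factors, 0 were higher and 2 lower, with a median of 0.023. Some of these, such as *eif2ak2* and *eif4ebp1*, are no initiation factors. *eif2ak2* was one of the 2 called lower, on 36 UMIs in each library, with an interval that reached 0 (-0.47, -1.18 to 0.24). All 3 cytoplasmic poly(A)-binding genes were above 0, and *pabpc1b* was past the threshold at 21.5 CPM in YM and 15.2 CPM in DMSO (0.50, 0.30 to 0.70), while *pabpc1a* had 1153 CPM in YM and 965 CPM in DMSO (0.26, 0.23 to 0.28).

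Over all crest-like cells, genes of the mitochondrial ribosome did not shift with the members. Of 74 tested in crest-like cells, 0 were higher and 1 lower past the threshold, 10 were above 0, and the median was -0.099, against 0.039 for the members. Of all 11164 genes 39.4% were above 0, with a median of -0.052, and 10.8% were called lower. The lowest was *mrps34*, with 25.7 CPM in YM and 34.3 CPM in DMSO (-0.42, -0.56 to -0.27), and the highest *mrpl2*, with 39.3 CPM in YM and 33.6 CPM in DMSO (0.23, 0.089 to 0.36). As a share of UMIs this list was higher in YM in ventral arch-like cells (0.386% in YM, 0.381% in DMSO) and lower in YM in each other crest-like class. Ventral arch-like cells, where its share was highest, were 17.7% of YM and 26.7% of DMSO cells. The part of this class mix in the median was not tested. The genes of this list also differed from the members across classes. In ventral arch-like cells 32 of 74 mitochondrial ribosomal protein genes were higher past the threshold in both libraries (11.2% of 8037 genes) and 74 of 74 had a mean ratio above 0, with a median of 0.35, while the 78 abundant members stood at -0.021. In frontonasal-like cells both lists were low, the mitochondrial list with 24 of 74 lower past the threshold (7.61% of 7569 genes) and a median of -0.29, and the 78 abundant members with a median of -0.18.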

How the data were processed

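The matrices deposited by the authors hold whole-number UMI counts, neither normalized nor filtered (Cell Ranger 5.0.1 on GRCz11 in the methods, Cell Ranger 4 in the file header), with 33649382 UMIs in YM and 25340682 in DMSO. Cells were called again in Python 3.11.15 (numpy 2.4.6, scipy 1.17.1, pandas 2.3.3) with the order-of-magnitude rule and a test of barcodes with at least 500 UMIs against near-empty ones. The filters of the methods followed (200 to 3500 genes for YM, 200 to 3000 for DMSO, under 5% mitochondrial UMIs), which left fewer cells than the methods state. Doublets were not removed. An alternative removed the 160 YM and 107 DMSO cells with the highest doublet scores.

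Clustering used Seurat 5.3.0 in R 4.3.3 on all genes but the members (2000 variable genes, 30 components, cell cycle regression, resolution 0.8). Classes were named from fixed markers, and are rebuilt rather than the clusters of the study. One dorsal arch 1-like cluster was led also by histone genes, and one frontonasal-like cluster had only 2 of its markers among its 10 leading genes. UMIs were summed per class and library and divided by the class total. Ratios have exact conditional binomial intervals, shares exact binomial (Clopper-Pearson) and CPM exact Poisson ones. A ratio needed at least 20 UMIs on each side. Ratios of a class use the crest-like cells outside it. On simulated counts the direction of known changes was recovered. The TMM factors came from edgeR 4.0.16. The alternatives varied the calling and filtering of cells, doublets, clustering, total, depth and free RNA. Muscle-like cells, absent from DMSO, entered no comparison of libraries.

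The members and lists were chosen with earlier results of these data known. Named are the 5 members highest and lowest in level and in ratio, the 5 with the widest range over crest-like classes, the 3 highest and lowest in each other class against the median member, all duplicates, and the highest or lowest genes of the fixed lists. Other genes were named after their values were seen, among them *si:dkey-151g10.6*, *rplp0* in levels, *rps29* over the classes and *mdm2*. Results on some genes are not reported here.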

Additional observations from a re-analysis of the deposited data

Results flagged for a closer look

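By summed UMIs, neutrophil-like cells were the only class with cells in both libraries whose RP share was lower in YM than in DMSO, at 28.7% in YM (21 cells) and 29.4% in DMSO (31 cells), a log2 ratio of -0.036 (-0.052 to -0.020), where the other 10 classes with both libraries were above 0. By the median over cells erythroid-like cells were lower in YM too, at 13.6% in YM and 14.1% in DMSO. The mean over neutrophil-like cells was 27.7% ± 4.71 in YM and 28.1% ± 6.23 in DMSO (SD over cells). The difference between the classes was not tested. Without their 10 most abundant non-member genes the shares were 39.0% in YM and 38.9% in DMSO.

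Near-empty barcodes, which enter no comparison of cells, held RP transcripts at 51.1% of UMIs in YM and 48.9% in DMSO, above the 45.8% in YM and 44.5% in DMSO of all kept cells.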

How the results depend on the processing

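The cells, the clustering, the total and the removal of free RNA were varied. No rerun comparison between YM and DMSO over the crest-like cells changed its direction. Of the single members, only those with the highest and lowest ratios were rerun, and not with TMM factors. These factors raise all ratios alike, so the sign of members little below 0, such as *rps29* at -0.047, may change with them. The log2 ratio of the RP share, 0.0388 as reported, was 0.0402 with at most 3000 genes per cell in both libraries, 0.0413 with at least 1000 genes per cell, 0.0402 without doublets, 0.0415 with free RNA subtracted, 0.0688 with RP and mitochondrial UMIs left out of the total, and 0.0901 with TMM factors. The median log2 ratio of the members, 0.0393 as reported, was 0.0408, 0.0435, 0.0407, 0.0413, 0.0693 and 0.0906 in the same order, and 0.0381 as a mean over cells. With no filter on low counts, 2 members were past the threshold of 0.32, the added one being *rps8b*. The gap between the highest and the lowest class, 7.02 points in YM and 7.36 in DMSO, was 7.08 in YM and 7.51 in DMSO with at least 1000 genes, 7.23 in YM and 7.46 in DMSO without doublets, 6.87 in YM and 7.21 in DMSO with the members kept in the clustered table, although 0 of them were among its variable genes, so that this setting does not show what clustering on them would do, 6.71 in YM and 7.15 in DMSO at resolution 0.3, 6.54 in YM and 7.15 in DMSO without cell cycle regression, 7.26 in YM and 7.46 in DMSO as a mean over cells, 7.34 in YM and 7.59 in DMSO after thinning, and 7.53 in DMSO with free RNA subtracted. Without cell cycle regression posterior arch-like cells were highest, and under every other setting dorsal arch 2-like cells were. The RP share of DMSO ventral arch-like cells, a log2 ratio of -0.00049 to the other crest-like cells, was at 0.020 as a mean over cells. The share was higher in YM in 6 of 6 classes under each of 11 alternatives. Not all of these could readily give another direction. Leaving RP UMIs out of the total keeps the order of shares by construction, apart from the small mitochondrial part. Thinning leaves the expected share of each kept cell unchanged. The ratio of *rpl36a* in YM pigment-like cells was -0.14 with RP and mitochondrial UMIs left out. No paired analysis was possible because each condition has 1 library. Replicates could not be left out for the same reason.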
